A study of Mus musculus with 8 samples.

Results

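The genes described here are a set of 56 factors that make ribosomes in the nucleolus, measured in mouse morulae with and without knockdown of P150. Members were found by joining the RefSeq accession of each array probe to the gene symbols of the set, with no use of measured values. All 56 were found among the 20660 genes named on the array and among the 14601 that passed the signal filter, with 76 probes in all. On all 8 arrays 55 of them were well above background, and Rrp12 missed that mark on siControl replicate 3.

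Ribosome production starts when RNA polymerase I copies the ribosomal DNA into a long precursor inside the nucleolus. Small nucleolar ribonucleoprotein particles modify the precursor, those of the box C/D class by methylation and those of the box H/ACA class by pseudouridylation, and separate sets of assembly factors then fold and cut it into the small and the large subunit. The mouse zygote lacks a typical nucleolus, and working nucleoli form during the cleavage stages that lead to the morula. The arrays read the messenger RNA of the factors, while ribosomal RNA and its precursor were not analysed here.

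Group P150KD comprised 5 arrays of embryos injected at the 1-cell stage with siRNA directed at P150 (gene Chaf1a), the biggest of the CAF-1 proteins, which lay histones onto newly copied DNA. Group siControl comprised 3 arrays of embryos given a control siRNA. All embryos were made by in vitro fertilisation, cultured in KSOM medium and collected as morulae at embryonic day 3.0, and each array carried RNA pooled from 10 embryos and amplified in 2 rounds. The siRNA was given to the 1-cell embryo, so no cell type was singled out. The labels do not say whether arrays stand for separate collections, so the p-values rest on the spread seen among these arrays.

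Levels are given on the log2 scale with the array's 75th percentile as 0, and a log2 fold change is P150KD minus siControl. A gene is called when limma's p, adjusted by the Benjamini-Hochberg method over all 30348 tested probes, is under 0.05. An array holds an equal mass of labelled RNA, so RNA per embryo is not known, and fewer cells of a type cannot be told apart from less RNA per cell. The 75th percentile ran from 1243 to 1539 in P150KD and from 986 to 1344 in siControl, and 50.1% to 55.9% of spots were well above background. The target Chaf1a read -1.71, 0.29, -0.72, -1.69 and -0.47 in P150KD replicates 1 to 5, against 2.18, 1.85 and 2.01 in siControl replicates 1 to 3. All P150KD arrays lay below all siControl arrays (log2 fold change -2.87, SE 0.48, limma adjusted p = 0.011). Chaf1b, which encodes a partner of P150 in CAF-1, fell as well (-0.89, SE 0.18, adjusted p = 0.0192). All 10 morula markers, Pou5f1, Nanog and Cdx2 among them, were well above background on all 8 arrays. Their summed signal was 219 to 235 times the 75th percentile in P150KD and 265 to 311 times in siControl, and 3 of them (Sox2, Tead4 and Gata3) fell. Of 8 leukocyte markers, Ptprc, Laptm5, Tyrobp and Lyz2 were above background on no array, while Cd74, Coro1a and Srgn rose and Cd52, above background on 7 arrays, was at -1.56 (adjusted p = 0.369). Their summed signal was 3.90 to 8.43 in P150KD and 0.980 to 1.496 in siControl. No tested sperm or cumulus cell marker was called, with sums of 0.215 to 1.92 in P150KD against 0.169 to 0.626 in siControl for sperm, and of 6.89 to 13.4 in P150KD against 5.42 to 7.29 in siControl for cumulus cells. The part of these cell types in the results was not tested.

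Of the 56 ribosome biogenesis genes, 4 were called and 52 were not. Tcof1, Nop2 and Nop16 fell and Wdr36 rose. The 3 falls made 5.36% of the members, where 10.3% of all tested genes fell, and the 1 rise made 1.79%, where 6.67% of all tested genes rose. In either direction 7.14% of the members were called, against 17.0% of all tested genes. For 52 members (92.9%) the fold change was under 2-fold, as it was for 68.0% of all genes, and the 4 above it were Tcof1, Nop10, Utp18 and Rrp12. The 95% interval lay within -1 and 1 for 41 members (73.2%) and for 26.0% of all genes, a count added after the values were seen. The members' standard errors were smaller, with a median of 0.21, against 0.34 over all genes. Members were also brighter, with a median siControl level of 4.82 against 0.78 over all genes, and the shares were not matched for level.

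**Figure D1:**
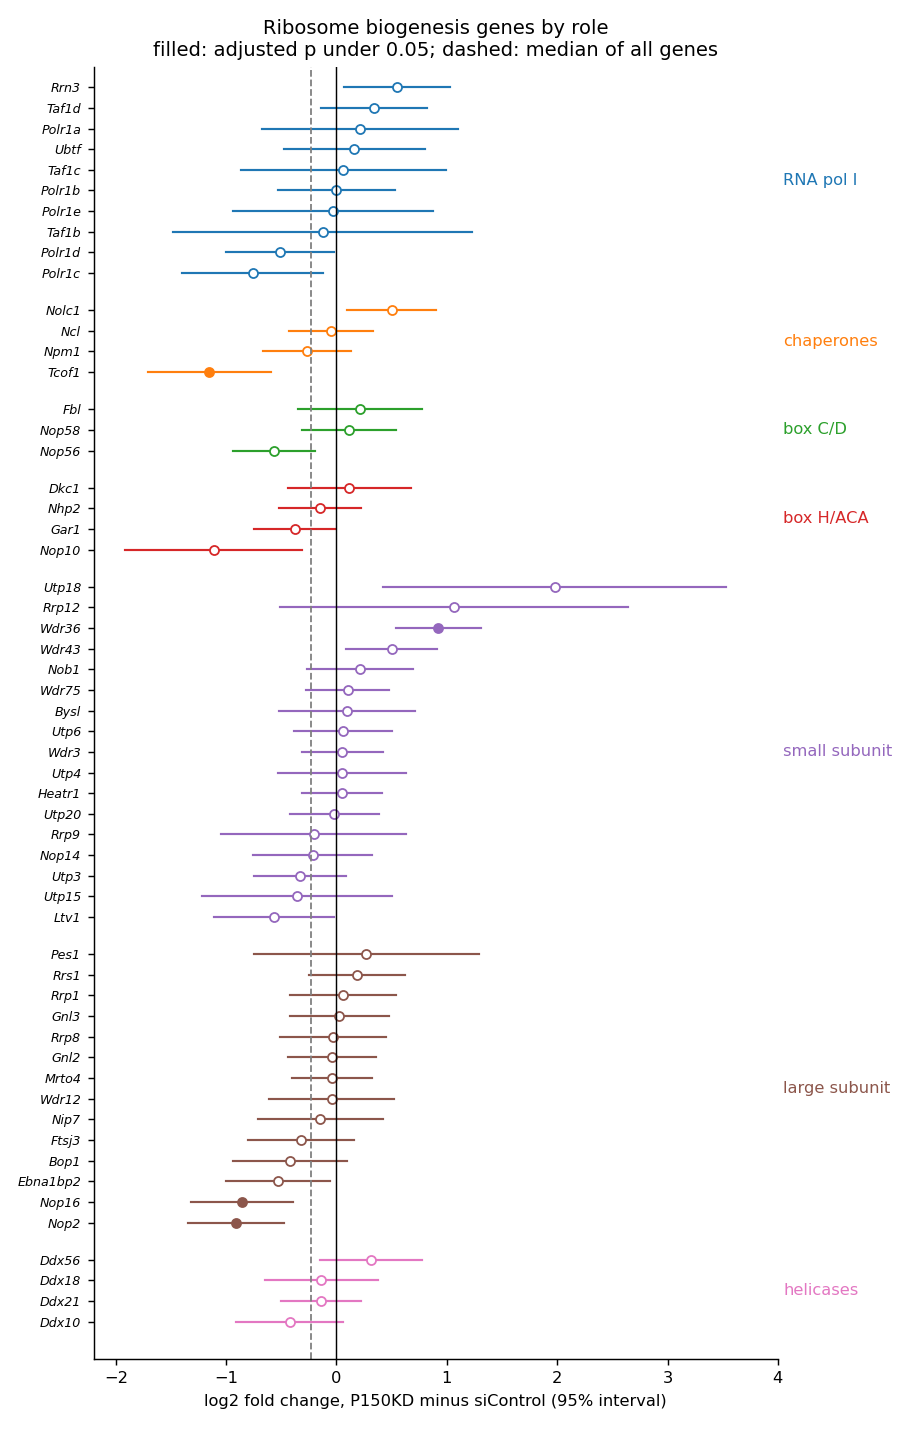
Log2 fold change of each of the 56 genes, P150KD minus siControl, with its 95% interval from limma, ordered by role and size. Filled points mark Tcof1, Nop2, Nop16 and Wdr36, the 4 genes with an adjusted p under 0.05, and the dashed line at -0.23 marks the median over all tested genes.

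The signal was lower in P150KD for 31 members and higher for 25, and their median log2 fold change was -0.03. Over all tested genes it was -0.23, with 61.1% lower (2287 of the 30348 probes, 7.54%, fell and 1912, 6.30%, rose), so the members lay 0.20 above that median. Scaling to 12 housekeeping genes in place of the 75th percentile adds 0.68 to every log2 fold change, and the members then had a median of 0.65 with 51 higher. On the scale of the 75th percentile all 12 of those genes were lower in P150KD, with a median of -0.34, and 5 of them (41.7%), Pgk1, B2m, Actb, Gapdh and Sdha, fell by 1.04 to 1.67. With quantile normalization the median was 0.18 with 37 higher, so the sign of a small difference depends on the scaling, and signs below are those on the scale of the 75th percentile. All P150KD arrays lay below all siControl arrays for 12 members (21.4%), as for 21.5% of all genes, and above them for 4 (7.14%), as for 10.4% of all genes. An unadjusted p under 0.05 was reached by 15 members (26.8%) and by 35.5% of all genes.

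For 2 of the 4 called members, Nop2 and Nop16, the sequence before the start site was at hand, and these are shown with that of Rrn3, the initiation factor of RNA polymerase I, which had 2 copies of the motif searched and was added after its match was seen. Each is the 250 bases before the RefSeq start site in build GRCm38.p6, written 5′ to 3′ on the gene's strand, with the letters CACGTG in capitals. That palindrome is the E-box bound by Myc and Max, known regulators of ribosome biogenesis genes.
Nop2, chr6:125131633-125131882, plus strand: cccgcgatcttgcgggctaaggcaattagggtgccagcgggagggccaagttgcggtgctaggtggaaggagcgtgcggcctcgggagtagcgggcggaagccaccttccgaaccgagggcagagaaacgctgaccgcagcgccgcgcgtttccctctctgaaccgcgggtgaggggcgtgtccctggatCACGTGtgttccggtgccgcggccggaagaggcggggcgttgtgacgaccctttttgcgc
Nop16, chr13:54590075-54590324, minus strand: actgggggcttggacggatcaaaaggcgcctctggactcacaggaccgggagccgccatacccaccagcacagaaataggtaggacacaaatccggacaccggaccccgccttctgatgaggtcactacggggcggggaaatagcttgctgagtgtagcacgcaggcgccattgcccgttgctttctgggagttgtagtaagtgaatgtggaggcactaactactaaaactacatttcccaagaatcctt
Rrn3, chr16:13780449-13780698, plus strand: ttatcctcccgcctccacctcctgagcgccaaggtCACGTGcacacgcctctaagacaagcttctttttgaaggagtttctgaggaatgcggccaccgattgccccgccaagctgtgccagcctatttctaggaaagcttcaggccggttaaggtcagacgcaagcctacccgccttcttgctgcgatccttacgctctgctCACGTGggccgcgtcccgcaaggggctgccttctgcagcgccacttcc
Nop2 held the motif 60 bases before its start, Rrn3 held it 215 and 48 bases before, and the Nop16 stretch held none. In windows from 250 bases before to 50 after the start, CACGTG stood in 8 of 47 matched members (17.0%) and in 2187 of 27025 genes (8.09%). For these windows all genes means the 27025 with a promoter sequence, whether or not they were tested here. The members had all passed the signal filter, and the shares were not matched for that. The 8 members with CACGTG were Rrn3, Utp4, Utp18, Utp20, Wdr43, Ltv1, Nop2 and Pes1, and Nop2 was the 1 called among them. CGGAAG on either strand, the core letters read by ETS family factors, stood in 26 of the 47 (55.3%) and in 5075 genes (18.8%), a search added after the values were seen, and the 2 motifs cannot overlap. Member windows were also richer in G and C, with a median of 59.3% against 52.8% over all genes, and both motifs hold a CG pair, of which a window had a median of 21 in members and 7 over all genes.

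RNA polymerase I and its initiation factors were represented by 10 members, and none was called (5 lower, 5 higher, median log2 fold change 0.03). Over all tested genes 17.0% were called and 61.1% were lower. Polr1c and Polr1d encode a pair of subunits that RNA polymerases I and III share. Polr1c read 5.82, 5.86, 5.80, 4.92 and 5.30 on the 5 P150KD arrays and 6.47, 6.39 and 6.03 on the 3 siControl arrays. Every P150KD array was lower than every siControl array, and P150KD replicates 4 and 5 were the lowest (log2 fold change -0.76, limma adjusted p = 0.109). Polr1d read 5.46, 5.54, 5.41, 5.40 and 4.83 on P150KD replicates 1 to 5, against 5.71, 5.98 and 5.82 on siControl replicates 1 to 3. The groups again did not overlap, with P150KD replicate 5 apart at the bottom (-0.51, adjusted p = 0.149), and a second probe differed from it by 0.04. Rrn3 carries the polymerase to the ribosomal DNA promoter. It read 6.13, 5.67, 5.70, 5.74 and 5.86 in P150KD replicates 1 to 5, against 5.46, 5.44 and 4.92 in siControl replicates 1 to 3. Here every P150KD array was higher, and siControl replicate 3 lay below the other controls (0.55, adjusted p = 0.118). Without siControl replicate 3 the Rrn3 difference was 0.37. Rrn3 passed under normexp, quantile and housekeeping scaling (limma adjusted p = 0.0408, 0.0427 and 0.0104) and in no other alternative.

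Taf1d, a subunit of the promoter selectivity factor SL1, read 2.83, 2.47, 2.30, 2.44 and 2.56 on the 5 P150KD arrays and 1.98, 2.04 and 2.53 on the 3 siControl arrays. The groups overlapped through siControl replicate 3 (0.34, adjusted p = 0.312). The other 6 members, the catalytic subunit genes Polr1a and Polr1b, Polr1e, the architectural factor gene Ubtf, and the SL1 genes Taf1b and Taf1c, had overlapping groups and log2 fold changes between -0.13 and 0.21. The values were Polr1a (0.21), Polr1b (-0.001), Polr1e (-0.03), Taf1b (-0.13) and Taf1c (0.06). Ubtf was read by a pair of probes that disagreed, at 0.16 by the brighter and at 1.16 (SE 0.41, adjusted p = 0.103) by the dimmer.

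Nucleolar chaperones and scaffold proteins held 4 members, of which Tcof1 fell. Tcof1 encodes treacle, a scaffold that gathers RNA polymerase I and Ubtf on ribosomal DNA and whose human counterpart is mutated in Treacher Collins syndrome. It read 2.56, 2.64, 2.67, 3.11 and 3.27 on P150KD replicates 1 to 5, against 4.10, 3.70 and 4.20 on siControl replicates 1 to 3. Every P150KD array lay below every control, and P150KD replicates 4 and 5 were the highest of their group. The log2 fold change was -1.15 (SE 0.24, limma adjusted p = 0.0212), a 2.22-fold lower signal, with means of 2.85 ± 0.32 in P150KD (SD, n = 5) and 4.003 ± 0.265 in siControl (SD, n = 3). The second Tcof1 probe fell as well (-1.06, SE 0.23, adjusted p = 0.0258). The difference was -1.44 (adjusted p = 0.115) within the slide column that holds P150KD replicate 1 beside the 3 controls, the other P150KD arrays being in the second column.

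Nolc1 encodes a chaperone of small nucleolar particles that moves between nucleolus and Cajal bodies. Its level was 7.92, 7.69, 7.50, 7.98 and 7.74 in P150KD replicates 1 to 5, against 7.25, 7.19 and 7.36 in siControl replicates 1 to 3. The groups did not overlap and P150KD was higher (log2 fold change 0.50, limma adjusted p = 0.0973). Npm1, nucleophosmin, and Ncl, nucleolin, encode abundant proteins of the nucleolus. Npm1 read 8.24, 8.15, 8.01, 7.93 and 7.76 on the 5 P150KD arrays and 8.24, 8.25 and 8.36 on the 3 siControl arrays. The highest P150KD array almost touched the lowest control (-0.26, adjusted p = 0.339), and the 5 Npm1 probes ranged over 0.27. Ncl read 7.35, 7.15, 7.02, 7.40 and 7.37 on P150KD replicates 1 to 5, against 7.26, 7.34 and 7.34 on siControl replicates 1 to 3. Its groups overlapped with a difference of -0.05 (95% interval -0.43 to 0.33, adjusted p = 0.855). A dimmer Ncl probe stood at -0.67 (SE 0.58).

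**Figure D2:**
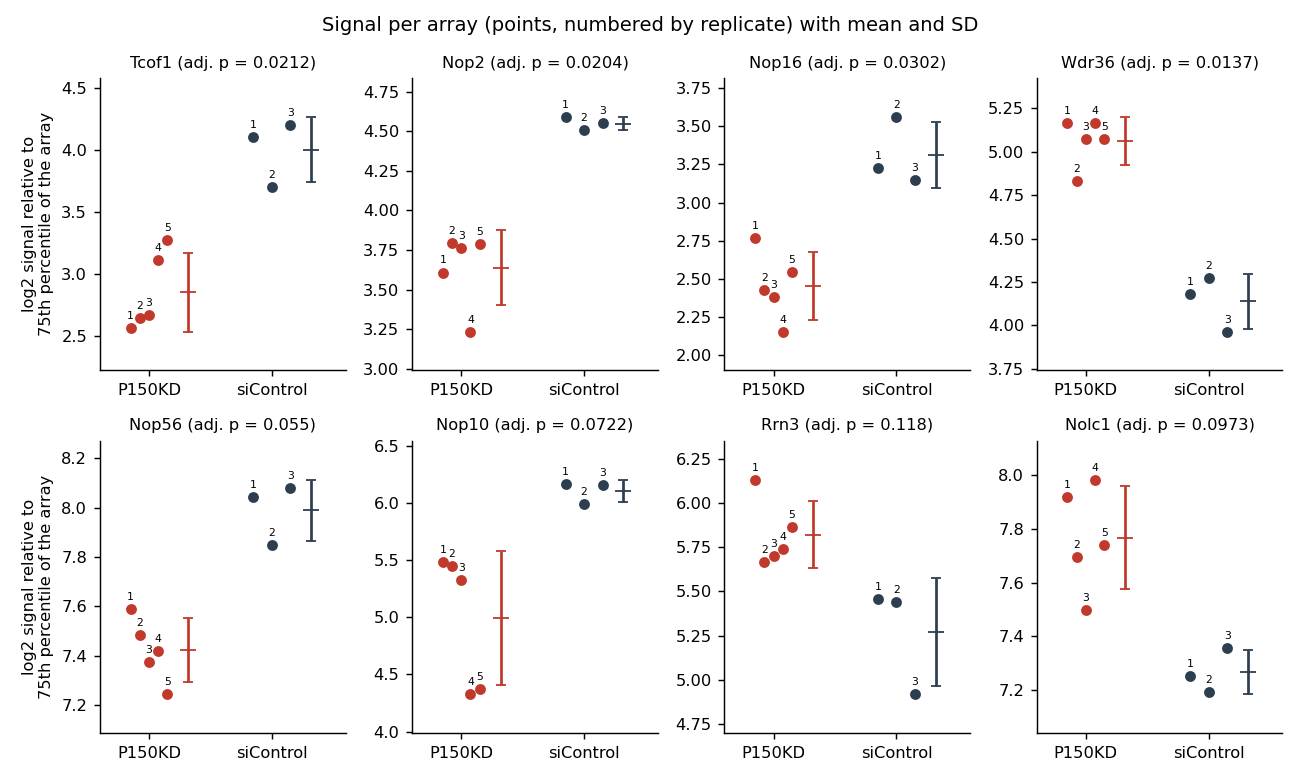
Log2 signal on each array, with its 75th percentile as 0 and P150KD left of siControl, for the 4 called genes (top row) and 4 members that were not called (bottom row); points carry the replicate number and bars are mean and SD. Tcof1, Nop2 and Nop16 are lower and Wdr36 is higher on all 5 P150KD arrays, and Nop10 lies at separate levels within P150KD, with replicates 4 and 5 at 4.33 and 4.38.

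None of the 3 members of the box C/D particle was called (median 0.11). Fbl encodes fibrillarin, the methyltransferase of the particle, and read 5.07, 4.68, 4.74, 5.48 and 5.16 in P150KD replicates 1 to 5, against 5.00, 4.90 and 4.54 in siControl replicates 1 to 3. The groups overlapped (log2 fold change 0.21, limma adjusted p = 0.585). Its partner Nop58, a scaffold protein of the same particle, read 7.05, 6.58, 6.75, 6.99 and 6.66 on the 5 P150KD arrays and 6.78, 6.54 and 6.76 on the 3 siControl arrays. Those groups overlapped too (0.11, adjusted p = 0.708). Nop56, the second scaffold protein, read 7.59, 7.49, 7.38, 7.42 and 7.24 on P150KD replicates 1 to 5, against 8.04, 7.85 and 8.08 on siControl replicates 1 to 3. Every P150KD array was lower than every control, with a difference of -0.57 (SE 0.16) that missed the threshold (adjusted p = 0.055). Nop56 passed with a trended and robust variance model (limma adjusted p = 0.0066) and under normexp (adjusted p = 0.0316). It also passed with only probes above background on all 8 arrays (adjusted p = 0.0329), and in no other alternative. A second Nop56 probe differed from the first by 0.01.

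The box H/ACA particle likewise had 0 of 4 members called (median -0.27). Dkc1 encodes dyskerin, the pseudouridine synthase of the particle, and read 2.93, 3.09, 3.01, 3.11 and 2.90 in P150KD replicates 1 to 5, against 3.07, 3.29 and 2.33 in siControl replicates 1 to 3. Its groups overlapped, with siControl replicate 3 lowest (0.12, adjusted p = 0.775), and the difference was -0.17 without that array. Gar1 and Nhp2 encode small core proteins. Gar1 read 7.05, 6.97, 6.90, 7.05 and 6.81 on the 5 P150KD arrays and 7.43, 7.42 and 7.16 on the 3 siControl arrays. The groups were apart by a narrow gap (-0.38, adjusted p = 0.154). Nhp2 read 7.36, 7.26, 7.12, 7.27 and 7.05 on P150KD replicates 1 to 5, against 7.51, 7.31 and 7.27 on siControl replicates 1 to 3, and its groups overlapped (-0.15, adjusted p = 0.556).

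Nop10, another core protein of the particle, had the widest spread of the 4 within P150KD. It read 5.48, 5.45, 5.33, 4.33 and 4.38 in P150KD replicates 1 to 5, against 6.16, 5.99 and 6.16 in siControl replicates 1 to 3. All P150KD arrays were lower than the controls, replicates 4 and 5 by far more than replicates 1 to 3. The log2 fold change was -1.11 (SE 0.34, limma adjusted p = 0.0722), and -0.62 in the slide column with P150KD replicate 1. Nop10 passed when limma was fitted to only those probes that were above background on all 8 arrays (adjusted p = 0.0424). With the trended and robust variance model it passed as well (adjusted p = 0.0428).

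Among 17 members of small subunit assembly, 1 rose (5.88%) and 0 fell (11 higher, 6 lower, median 0.05). Of all tested genes 6.67% rose, 10.3% fell and 61.1% were lower. Wdr36 belongs to the small subunit processome, the large particle that forms on the precursor of 18S ribosomal RNA. It read 5.17, 4.83, 5.07, 5.17 and 5.08 on the 5 P150KD arrays and 4.18, 4.27 and 3.96 on the 3 siControl arrays. The lowest P150KD array, replicate 2, was still well above the highest control. The log2 fold change was 0.92 (SE 0.17, limma adjusted p = 0.0137), a 1.90-fold higher signal, with means of 5.06 ± 0.14 in P150KD (SD, n = 5) and 4.14 ± 0.16 in siControl (SD, n = 3). A dimmer Wdr36 probe had a similar difference with a wider error (0.96, SE 0.36, adjusted p = 0.117). Within the slide column with P150KD replicate 1 the difference was 1.03 (adjusted p = 0.122).

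Wdr43 is another processome gene and read 7.94, 7.80, 7.70, 7.98 and 7.51 on P150KD replicates 1 to 5, against 7.43, 7.16 and 7.27 on siControl replicates 1 to 3. P150KD was higher on every array (0.50, adjusted p = 0.103), and Wdr43 passed under normexp, quantile and housekeeping scaling and with the trended model. Utp18, of the same subcomplex as Wdr36 in yeast, read -0.81, -0.93, -2.92, -1.62 and -2.23 in P150KD replicates 1 to 5, against -2.48, -3.69 and -4.86 in siControl replicates 1 to 3. The controls spread widely, and P150KD replicate 3 lay within their range (1.98, SE 0.67, adjusted p = 0.0905). Ltv1, which leaves the small subunit late in its maturation, read 6.21, 6.21, 6.12, 5.87 and 5.39 on the 5 P150KD arrays and 6.42, 6.49 and 6.67 on the 3 siControl arrays. The groups did not overlap, and P150KD replicate 5 was lowest (-0.57, adjusted p = 0.15).

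The 13 remaining small subunit genes had overlapping groups and were not called, with a median of 0.05. They were Nop14, Rrp9, Rrp12, Utp3, Utp4, Utp6, Utp15, Utp20, Wdr3, Wdr75, Heatr1, Nob1 and Bysl. Without Rrp12 they lay between -0.36 (Utp15) and 0.21 (Nob1, the nuclease that trims 18S ribosomal RNA). Among these 13 alone, processome genes of the subcomplex that binds the precursor first in yeast were Utp4 (0.05), Wdr75 (0.10) and Heatr1 (0.05), beside Utp15. Genes of the subcomplex of Wdr36 among the 13 were Utp6 (0.06) and Wdr3 (0.05). Rrp9, which binds the U3 small nucleolar RNA, was at -0.21, and the other values were Nop14 (-0.22), Utp3 (-0.33), Utp20 (-0.02) and Bysl (0.10). Rrp12, an export factor of the small subunit in yeast, read -4.42, -4.17, -3.90, -2.40 and -2.64 on P150KD replicates 1 to 5, against -4.24, -3.59 and -5.87 on siControl replicates 1 to 3. P150KD replicates 4 and 5 were the highest and siControl replicate 3, not above background, the lowest (1.06, SE 0.67, adjusted p = 0.328).

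Large subunit assembly had 14 members, of which 2 fell (14.3%) and 0 rose (10 lower, 4 higher, median -0.04). Over all tested genes 10.3% fell, 6.67% rose and 61.1% were lower, and the roles were not compared by a test. Nop2 encodes a methyltransferase of the large subunit's ribosomal RNA. It read 3.61, 3.79, 3.76, 3.23 and 3.79 in P150KD replicates 1 to 5, against 4.59, 4.50 and 4.55 in siControl replicates 1 to 3. The controls lay close together and above every P150KD array, of which replicate 4 was lowest. The log2 fold change was -0.91 (SE 0.19, limma adjusted p = 0.0204), a 1.88-fold lower signal, with means of 3.64 ± 0.24 in P150KD (SD, n = 5) and 4.55 ± 0.04 in siControl (SD, n = 3). In the slide column with P150KD replicate 1 it was -0.94 (adjusted p = 0.192).

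Nop16, an assembly factor of early large subunit particles in yeast, read 2.77, 2.43, 2.39, 2.16 and 2.54 on the 5 P150KD arrays and 3.23, 3.56 and 3.15 on the 3 siControl arrays. The highest P150KD array, replicate 1, lay below the lowest control. The log2 fold change was -0.86 (SE 0.20, limma adjusted p = 0.0302), a 1.81-fold lower signal, with means of 2.46 ± 0.22 in P150KD (SD, n = 5) and 3.31 ± 0.22 in siControl (SD, n = 3). In the slide column with P150KD replicate 1 it was -0.55 (adjusted p = 0.41).

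Ebna1bp2, another large subunit factor, read 7.50, 7.31, 7.21, 6.96 and 6.80 on P150KD replicates 1 to 5, against 7.69, 7.65 and 7.73 on siControl replicates 1 to 3. All P150KD arrays were lower, replicates 4 and 5 most (-0.53, adjusted p = 0.122). Its 3 probes ranged over 0.83. Bop1, a scaffold that joins Pes1 and Wdr12 in the PeBoW complex, read 3.49, 3.47, 3.37, 4.11 and 3.83 in P150KD replicates 1 to 5, against 3.92, 4.07 and 4.23 in siControl replicates 1 to 3. Its groups overlapped through P150KD replicate 4 (-0.42, adjusted p = 0.243). The other 10 members, Pes1, Wdr12, Ftsj3, Rrp1, Rrp8, Rrs1, Gnl2, Gnl3 (nucleostemin), Nip7 and Mrto4, had overlapping groups, none was called, and they lay between -0.32 (Ftsj3) and 0.27 (Pes1). The third PeBoW gene, Wdr12, was at -0.04. The nucleolar GTPase genes were Gnl2 (-0.04) and Gnl3 (0.03), the methyltransferase gene Rrp8 was at -0.03, and the others were Rrp1 (0.06), Rrs1 (0.19) and Mrto4 (-0.04). Nip7 had a dimmer probe at -1.10 (SE 0.46, adjusted p = 0.16), against -0.15 by the brighter.

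Of the 4 nucleolar DEAD-box helicases, which unwind RNA during assembly, none was called (median -0.14). Ddx10 read 4.31, 4.14, 4.16, 3.78 and 3.61 on the 5 P150KD arrays and 4.41, 4.39 and 4.47 on the 3 siControl arrays. Its P150KD arrays were all lower, replicates 4 and 5 most (log2 fold change -0.42, limma adjusted p = 0.216). Ddx18 read 6.39, 5.54, 5.97, 6.01 and 6.21 on P150KD replicates 1 to 5, against 6.20, 6.22 and 6.08 on siControl replicates 1 to 3. P150KD held both the highest and the lowest array (-0.14, adjusted p = 0.707). Ddx21, which also acts in transcription by RNA polymerase I, read 6.85, 6.63, 6.74, 6.97 and 6.70 in P150KD replicates 1 to 5, against 6.90, 6.90 and 6.96 in siControl replicates 1 to 3. The groups overlapped (-0.14, adjusted p = 0.576). Ddx56 read 4.35, 4.22, 4.27, 4.68 and 4.71 on the 5 P150KD arrays and 3.94, 4.33 and 4.13 on the 3 siControl arrays. P150KD replicates 4 and 5 were highest, and the groups overlapped (0.31, adjusted p = 0.328). Second probes of Ddx18 and Ddx21 gave 0.01 and 0.13, of the other sign.

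**Figure D3:**
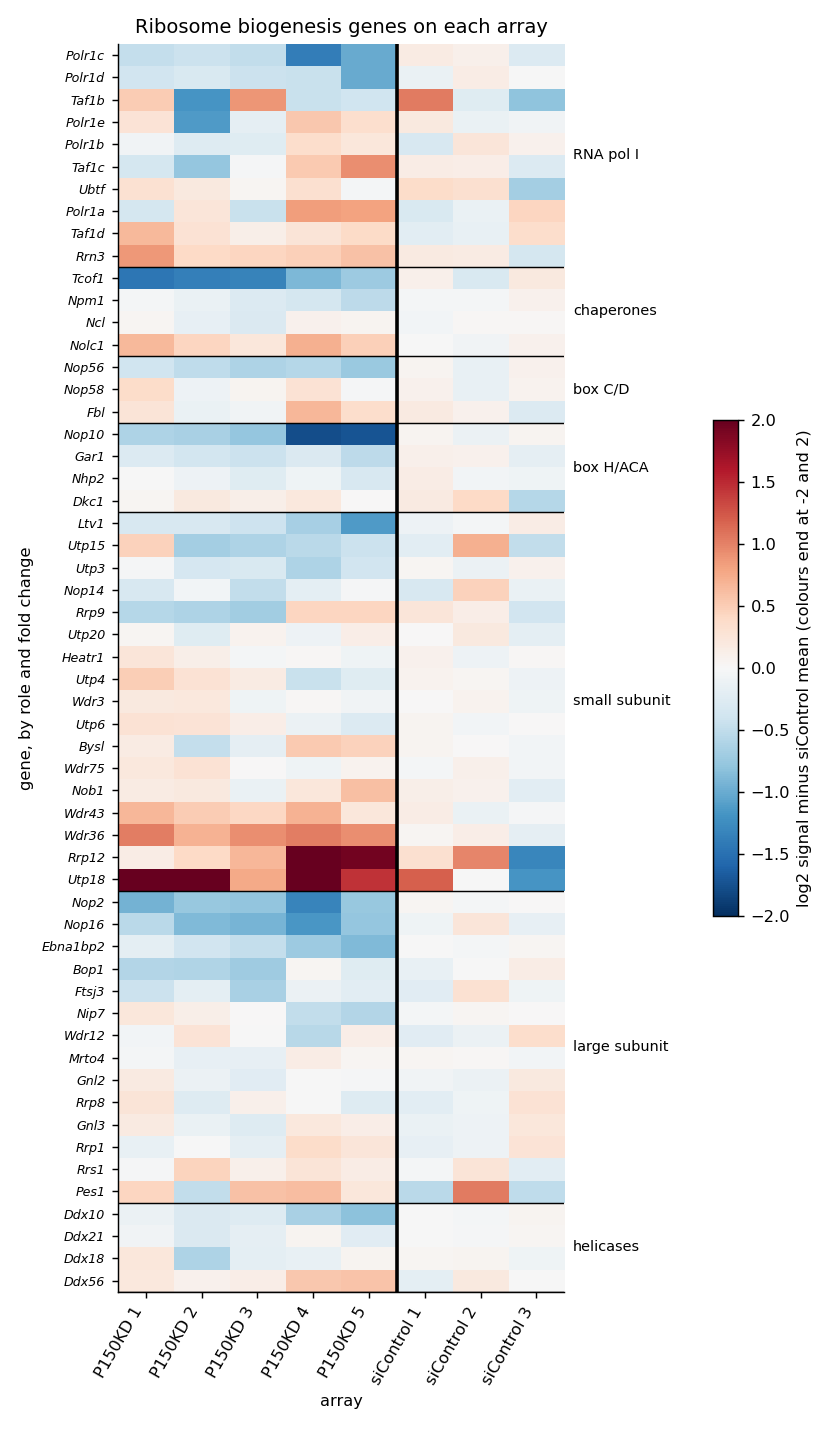
Each of the 56 genes (rows, by role and fold change) on each array (columns, P150KD left of siControl), coloured by log2 signal minus the siControl mean. Rows for Tcof1, Nop2, Nop16 and Wdr36 keep 1 hue across the 5 P150KD arrays, while rows such as Nop10 and Rrp9 change in shade or hue between P150KD replicates 1 to 3 and replicates 4 and 5.

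The P150KD arrays were not alike for these genes. Their SD was larger in P150KD than in siControl for 37 members (66.1%), as for 60.9% of all genes. Replicates 4 and 5 were the lowest pair of P150KD arrays for 11 members and the highest pair for 15, together 46.4% of the members. The same was seen for 34.7% of all genes, the highest share of the 10 possible pairs in both sets, which were counted after the values were seen. Set against the siControl mean, the members' median was 0.04, -0.15, -0.18, 0.02 and -0.02 on P150KD replicates 1 to 5. On each P150KD array that median was above the median of all genes, by 0.05 to 0.23.

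Other genes of the pathway were listed by role, 213 in 7 lists, and 212 were tested. Of these 10 fell and 2 rose, where 10.3% of all tested genes fell and 6.67% rose. Without siControl replicate 1, 2 fell and 1 rose, where 446 of all 14601 genes fell and 537 rose. Among 13 further RNA polymerase I genes 1 fell (7.69%), Znrd1, also known as Polr1h, which encodes a small subunit of the polymerase. It read 4.44, 4.33, 4.38, 3.66 and 3.86 on P150KD replicates 1 to 5, against 5.33, 5.05 and 5.60 on siControl replicates 1 to 3. All P150KD arrays were well below the controls (-1.19, SE 0.25, limma adjusted p = 0.0227). Among 10 further genes for small nucleolar particles 2 fell (20.0%) and 1 rose (10.0%). Pih1d1, part of the R2TP complex that builds box C/D particles, had a log2 fold change of -1.47 (SE 0.17, adjusted p = 0.00367) and Ruvbl1, an ATPase of the same complex, one of -0.72 (SE 0.16, adjusted p = 0.0286). Nufip1, an assembly factor that works beside them, rose by 2.89 (SE 0.61, adjusted p = 0.0228).

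In small subunit assembly 1 of 39 further genes fell (2.56%), Imp4 of the processome (-0.55, SE 0.15, limma adjusted p = 0.0477). Rrp7a (-0.67), Krr1 (-0.65) and Pwp2 (-0.56) came next and did not pass. In large subunit assembly 1 of 44 fell and 1 rose (2.27% each). The nucleolar GTPase gene Gtpbp4 had a log2 fold change of -0.87 (SE 0.21, adjusted p = 0.0344), and Pelp1, which takes part in large subunit maturation, rose by 1.00 (SE 0.27, adjusted p = 0.0486). Of 14 genes of the RNA exosome, the nuclease that trims ribosomal RNA ends, and its cofactors, 4 fell and 0 rose, 28.6% where 10.3% of all tested genes fell. They were the helicase gene Mtrex (-1.22, SE 0.18, adjusted p = 0.00742) and the core subunit genes Exosc1 (-1.24, SE 0.30), Exosc3 (-0.67, SE 0.15) and Exosc8 (-1.002, SE 0.263). The median of the 14 was -0.50, and 0.18 when scaled to the housekeeping genes.

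Upstream regulators had 1 of 13 genes called (7.69%), where 17.0% of all tested genes were called. Max, the partner of Myc at the E-box, fell (-0.87, SE 0.18, limma adjusted p = 0.02). Myc itself read 1.51, 0.27, 0.51, 1.21 and 1.66 in P150KD replicates 1 to 5, against -0.16, 0.77 and 0.54 in siControl replicates 1 to 3. The groups overlapped (0.65, SE 0.40, adjusted p = 0.313), as did those of Mycn (0.53, SE 0.51, adjusted p = 0.523). Mycl had the other sign, also with overlapping groups (-1.79, SE 0.95, limma adjusted p = 0.245). The growth regulators Rps6kb1 (-0.97, SE 0.27, adjusted p = 0.0522), Tsc1 (-1.44, SE 0.46, adjusted p = 0.0771) and Mtor (-0.86, SE 0.37, adjusted p = 0.168) did not pass.

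Ribosomal proteins, the other large input of ribosome assembly, had 0 of 79 genes called in limma and 0 with an unadjusted p under 0.05. Over all tested genes 17.0% were called and 35.5% had such an unadjusted p. Lower signals in P150KD were seen for 77 of the 79, where 61.1% of all tested genes were lower. Their log2 fold changes lay between -0.50 and 0.07, with a median of -0.27, close to the -0.23 of all tested genes. That median was -0.03 with quantile normalization and 0.41 when scaled to the housekeeping genes. The lowest limma adjusted p among them was 0.178, that of Fau (-0.44, SE 0.20). Ribosomal protein genes and Npm1 have processed copies in the genome, whose RNA their probes could share. The 106 further polymerase, particle and subunit assembly genes had a median of -0.28, and of 0.405 on the housekeeping scale. Of these 106, 83 were lower, where 61.1% of all tested genes were. The 56 members thus had a higher median than these lists on the scale of the 75th percentile (-0.03), a difference that was not tested.

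**Figure D4:**
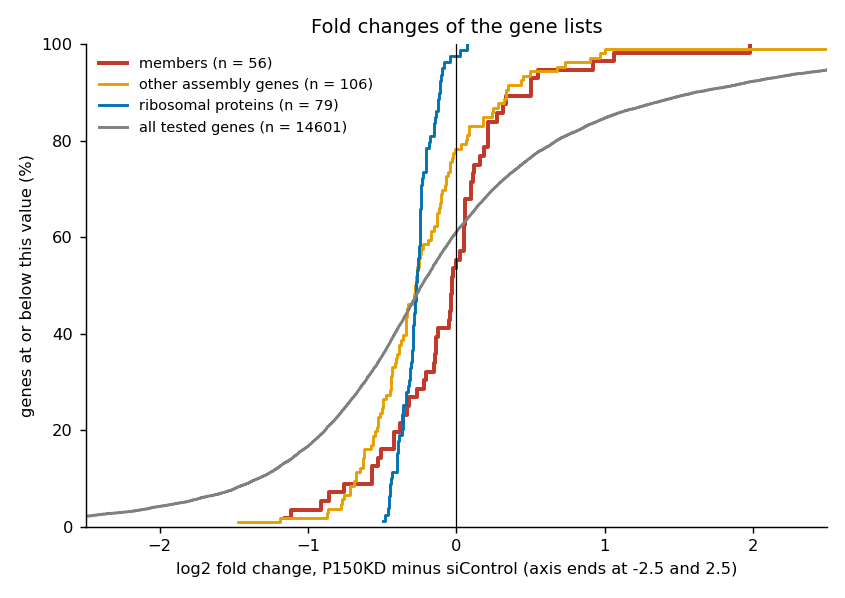
Cumulative share of genes (%) at or below each log2 fold change, P150KD minus siControl, for the 56 members, 106 other assembly genes, 79 ribosomal protein genes and all 14601 tested genes. The members' curve crosses 50% near -0.03 and those of the other lists between -0.28 and -0.23, and the curve of all genes is the widest.

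Whether the 4 passed the threshold depended on single arrays and on the scaling. Without siControl replicate 1 none of the 4 passed in limma. The limma adjusted p was then 0.0817 for Tcof1, 0.0788 for Nop2, 0.0865 for Nop16 and 0.0535 for Wdr36. Calls over all 14601 genes were fewer as well, with 446 fallen and 537 risen in place of 1503 and 974. In that fit 9 members had an unadjusted p under 0.05, a share that was not counted over all genes. The log2 fold changes without that array were -1.10 for Tcof1, -0.89 for Nop2, -0.90 for Nop16 and 0.94 for Wdr36, close to those with it. Nop16 kept its call in 1 of the 8 fits that leave out an array, Nop2 in 5, Tcof1 in 6 and Wdr36 in 7. The slide column shared by both groups holds only P150KD replicate 1 beside the 3 controls. With that column as a block the median log2 fold change was 0.04 for the members and -0.19 over all tested genes. With 1 P150KD array to compare, that fit cannot decide whether a member differs. The 3 falls also missed the threshold with quantile normalization (adjusted p = 0.0516 for Tcof1, 0.0569 for Nop2 and 0.0633 for Nop16) and on the housekeeping scale (adjusted p = 0.301, 0.378 and 0.57 for the same genes), where Wdr36 passed. No sign turned among the 4 in the 19 alternatives run.

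**Figure D5:**
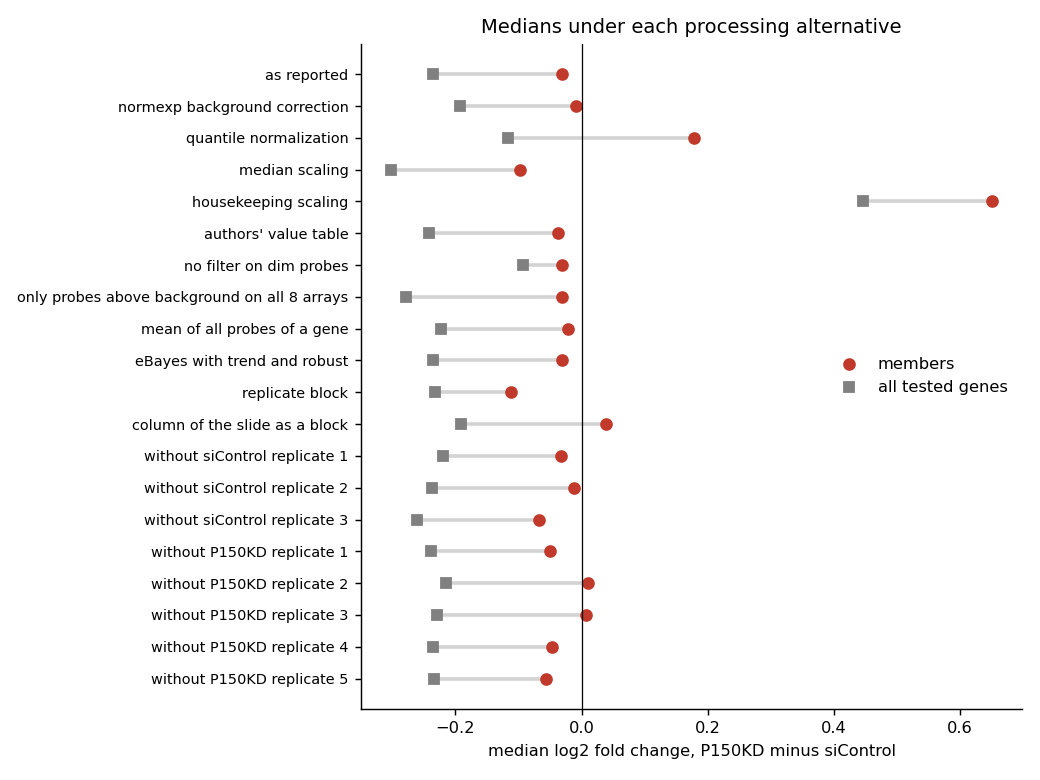
Median log2 fold change, P150KD minus siControl, of the members (circles) and of all tested genes (squares) under the reported processing and 19 alternatives. The members' median lies above that of all genes in each row, by 0.06 to 0.29. Its own position runs from -0.11 with a replicate block to 0.65 on the housekeeping scale. Median scaling, the housekeeping scale and the trended and robust model cannot change the distance between the medians (0.20), so those rows do not test it. The authors' values gave the same distance.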

How the data were processed

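Total RNA of mouse morulae was amplified, labelled with Cy3 and hybridised to one-colour Agilent arrays, per the labels' protocols. Per the file headers, the authors read each scan with Agilent Feature Extraction 10.5.1. Its processed signal, the main input here, is an intensity with background removed, per the file headers. Raw intensity (median of spot and of background) and 0 or 1 flags stand beside it, per the file headers. The deposited series table holds log2 values, which were checked against the scanner files: on each array 99.9% of probes lay within 0.05 of the processed signals after 75th percentile scaling and centring of every probe on its median.

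Usable spots of a probe were averaged, log2 values were taken and the array's 75th percentile (over non-control spots) was subtracted. Probes well above background on at least 3 of 8 arrays (30348 of 55681) were tested with limma 3.58.1 in R 4.3.3 (lmFit, eBayes, two-sided, no covariates, Benjamini-Hochberg). The brightest tested probe stood for its gene. RefSeq accessions named 27235 probes, while 1450 of the 28685 probes with a RefSeq accession were not matched to a single gene symbol. Tables used Python 3.11.15, pandas 2.3.3 and numpy 2.4.6. Precision is limited by the number of arrays.

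The members, lists, tests and alternatives were chosen with earlier results of these data known. Values per array are given for up to 4 members of each role with the smallest p and for every called member with a log2 fold change of at least 1 in size; other lists are named by the smallest p, up to 4 genes each, with Myc and Mycn beside them. The values per array of Rrp12, the promoter of Rrn3 and the difference of Mycl were added after their values were seen. Same-numbered P150KD and siControl arrays did not deviate together (r of -0.01, -0.07 and -0.02), so the numbers were not taken as pairs.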

Additional observations from a re-analysis of the deposited data

Results flagged for a closer look

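For the 27 members named with values per array and for Chaf1a and Chaf1b, 29 genes in all, the 5 P150KD arrays were searched for an array that stands apart from the rest by Dixon's test at the 95% level. Chance alone marks about 5% of such groups, and 2 were marked. For Polr1d, P150KD replicate 5 was lowest at 4.83, with the next P150KD array at 5.40. Without that array the log2 fold change was -0.39 in place of -0.51. For Wdr36, P150KD replicate 2 was lowest at 4.83, with the next at 5.07, and the difference without it was 0.98 in place of 0.92.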

How the results depend on the processing

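Of 28 single-gene differences (27 members and Chaf1a) under 19 alternatives, 462 values kept their sign and their side of the threshold, 30 lost a call, 20 gained one and 20 turned sign without a call. Quantile normalization gave 0 members fallen and 3 risen (Wdr36, Rrn3 and Wdr43), a member median of 0.18, a distance of 0.29 from all genes, 1487 probes fallen and 4 other pathway genes fallen. Of the reported 10 fallen and 2 risen pathway genes, median scaling left counts of 2 and 1 with 1512 probes fallen, and the values deposited by the authors left 1 risen. The housekeeping scale gave 0 members fallen and 15 risen, a median of 0.65, 420 probes fallen and 5132 risen, and 1 fallen and 17 risen pathway genes, and 90.2% of called genes were then risen, against 39.3% as reported. With no filter the distance from all genes was 0.062, with 6 and 1 pathway genes called; with only probes above background on all 8 arrays 5 members and 19 pathway genes fell. The trended and robust model called 7 members fallen and 3 risen and 25 pathway genes fallen, and normexp, run on the median spot signal, 3 members risen. Members gained with the trended model were Nop56, Gar1, Nop10 and Ebna1bp2 (fallen) and Nolc1 and Wdr43 (risen). Of the members with values per array, Rrn3, Taf1d, Nolc1, Nop58, Utp18, Wdr43 and Ddx56 gained a call as risen on the housekeeping scale. With the replicate block (the numbers share no pairing) 0 members, 0 probes and 0 pathway genes were called in limma, 6 members had an unadjusted p under 0.05 and the distance was 0.12. With the slide column as a block 0 members and, of all probes, 263 fallen and 438 risen were called, with 1 and 0 pathway genes. Leaving out 1 array gave 0 to 3 members fallen and 0 to 1 risen, medians from -0.07 to 0.01, distances of 0.18 to 0.24, 661 to 2009 probes fallen, 1023 to 1784 risen, and 2 to 8 fallen and 0 to 2 risen pathway genes. The lowest probe counts came without siControl replicate 1.

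Signs turned as follows. With quantile normalization Ncl was at 0.16, Nhp2 at 0.049, Ddx18 at 0.12 and Ddx21 at 0.082. On the housekeeping scale Polr1d was at 0.17, Npm1 at 0.42, Ncl at 0.63, Nop56 at 0.12, Gar1 at 0.30, Nhp2 at 0.53, Ltv1 at 0.12, Bop1 at 0.26, Ebna1bp2 at 0.15, Ddx10 at 0.26, Ddx18 at 0.54 and Ddx21 at 0.54. With the slide column as a block Ncl was at 0.038 and Ddx18 at 0.23. Leaving out 1 array put Dkc1 between -0.17 (without siControl replicate 3) and 0.312, and Ncl between -0.089 and 0.0074 (without P150KD replicate 3). Cause was not tested for any of these. A block for slide or scan was not run, as all arrays share 1 slide and 1 scan. In simulated data for P150KD against siControl with 30348 probes, 2 of 100 probes changed 2-fold and 36 of 100 changed 4-fold were recovered. Those data held far fewer changed probes than the arrays, where 2287 fell and 1912 rose. Members had a median standard error of 0.21, against 0.34 over all genes, and Nop2, Nop16 and Wdr36 were called below 2-fold. The share recovered among members was not tested. A member that was not called may still differ.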
